A study of Mus musculus with 14 samples.

Results

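Translation initiation and elongation factors are the proteins that bring the ribosome to an mRNA, choose the start codon and drive the addition of amino acids. They were followed here as the genes of the input table whose mouse symbol begins with Eif1 to Eif6 or Eef1 to Eef2. A total of 70 symbols matched. Of these, 3 pseudogenes (Eif1-ps1, Eif4a-ps4 and Eif5al3-ps) were left out, so that 67 of the 14837 genes of the input table were members, and 63 of them had enough counts to be tested. The study compared Lin28a-positive (Lin28a+) muscle stem cells (MuSCs), the resident stem cells of skeletal muscle, with control MuSCs of mice, and it measured total RNA (input), m6A-RIP and Igf2bp3-RIP in 2 libraries of each population and Lin28a-RIP in 2 libraries of Lin28a+ MuSCs alone. RIP denotes immunoprecipitation of RNA with an antibody, here to the N6-methyladenosine (m6A) mark or to an RNA-binding protein. Lin28a+ cells were sorted by flow cytometry from the skeletal muscle of Lin28a-CreERT2; LSL-tdTomato mice, in which Cre expressed from Lin28a switches on a red reporter, and are labelled with the genotype "Lin28a positive"; the other population carries only the label "Control". Both populations were grown on Matrigel in DMEM with fetal bovine serum and are labelled as untreated apart from the precipitation. Age, sex and number of mice are not given in the sources used here, nor is it stated that the 2 libraries of a group came from separate animals or cultures (a general remark on biological replicates in the study's methods names more of them than the libraries per group here and is not tied to these libraries), so the p-values measure only the spread between these libraries, which may be technical.

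Initiation begins when eIF2 brings the initiator tRNA to the small ribosomal subunit together with eIF1, eIF1A, eIF5 and the multi-subunit scaffold eIF3. The cap of the mRNA is bound by eIF4F, which joins the cap-binding protein eIF4E, the scaffold eIF4G and the RNA helicase eIF4A, and 4E-binding proteins compete with eIF4G for eIF4E. During elongation eEF1A delivers aminoacyl-tRNA, eEF2 moves the ribosome along the mRNA and eIF5A relieves pauses. Stem cells of adult muscle are known to keep protein synthesis low at rest through phosphorylation of eIF2 and to raise it on activation.

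The input libraries held 4842915 to 6220960 estimated counts, the m6A-RIP libraries 21350962 to 31830638 counts, the Igf2bp3-RIP libraries 9215355 to 34142094 and the Lin28a-RIP libraries 36610494 and 33908110. In the input table both Lin28a+ columns are named as if they were m6A-RIP, so they could be assigned to their group but not to a replicate and are called libraries A and B. In the m6A-RIP table the 2 Lin28a+ columns bear 1 and the same name, that of the first replicate, and are called libraries A and B likewise, so that their being 2 separate samples rests on the labels and on their differing values. Across genes the Lin28a+ input columns correlated at 0.949 with the control input columns and at 0.513 to 0.519 with the Lin28a+ m6A-RIP columns. Lin28a, which defines the groups, has no row in the input table used here and the labels could not be checked on it, whereas Igf2bp3 held 61.7 and 66.4 estimated counts in control and 181 and 166 in Lin28a+ input. Of 15 myogenic markers, 6 were higher and 7 lower in Lin28a+ libraries, and their summed level was 16394 and 16687 counts scaled to library size (CPM) in control against 16671 and 16796 in Lin28a+ libraries. Genes of differentiation moved both ways in that list, as Actc1, an early sarcomeric actin (3.75), and Myog, a factor of differentiating myoblasts (1.86), rose on the log2 scale and Tnnt2, a troponin (-2.21), Chrna1, a receptor of the muscle endplate (-0.92), and Myh3, embryonic myosin (-0.57), fell. Genes of MuSCs and myoblasts did so too, with Pax7 at 0.36, Myf5 at -1.21 and Vcam1 at -1.93. Markers of endothelial cells and of macrophages summed to at most 3.26 CPM, those of fibro-adipogenic progenitors to 275 and 281 against 196 and 197 CPM, and those of pericytes or smooth muscle to 5880 and 5847 against 7714 and 7690 CPM. The members of these lists moved both ways: among the former Gsn fell from 144 and 149 to 63.1 and 63.8 CPM, Ly6a rose from 3.93 and 4.59 to 13.5 and 12.5 CPM, and Col3a1 was at -0.05 on the log2 scale. Among the latter Acta2, which myoblasts also express and which makes up most of the sum, rose by 0.46, whereas Tagln fell from 285 and 293 to 77.3 and 75.3 CPM and Rgs5 from 2.44 and 2.09 to 0.20 and 0.20 CPM. The part of these differences in cell state in the results that follow was not tested.

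In the promoters of the members, a script looked for CACGTG, the E-box that the growth regulator Myc binds with Max and that is known from genes of the translation machinery. A RefSeq promoter window, from 250 bases before to 50 bases after a start site, was given for 50 of the 63 members tested, which is under 80%, so a comparison over the set is void. At least 1 E-box lay in 13 of these 50 promoters (26%), and in 12.2% of the 8594 promoters of all genes tested. A tract of C and T that begins with C at the start site was also looked for. It lay in 2 of the 50 promoters (4%) and in 2.99% of those of all genes tested. The windows below are 6 examples, picked with values known: the promoters of scaffolds with many peaks (Eif3a and Eif4g1), of the cap-binding protein (Eif4e), of a helicase cofactor (Eif4h) and of elongation factors (Eif5a and Eef2); the capitals mark the E-box, which reads the same on both strands, and the coordinates are those of GRCm38.p6.
Eif3a, chr19:60790654-60790683, minus strand: ccgcgagggaatCACGTGgttccttccttt
Eif4g1, chr16:20672661-20672690, plus strand: ggcagtgggtgtCACGTGatggggcggagc
Eif4e, chr3:138527192-138527221, plus strand: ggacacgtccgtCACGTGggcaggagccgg
Eif4h, chr5:134639488-134639517, minus strand: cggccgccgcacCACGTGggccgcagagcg
Eif5a, chr11:69921443-69921472, minus strand: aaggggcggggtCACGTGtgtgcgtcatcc
Eef2, chr10:81176576-81176605, plus strand: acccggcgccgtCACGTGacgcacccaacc
A match is a stretch of letters and not a measured binding site.

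The RNA of the translation machinery differed between the 2 populations in small steps and mostly upwards. In the input, 49 of the 63 tested factors (77.8%) passed an adjusted p of 0.05 in edgeR's quasi-likelihood test, 32 upwards and 17 downwards in Lin28a+ MuSCs. The same test called 56.8% of the 11317 genes tested (28.1% higher and 28.7% lower), so a call by itself was common among all genes, and the median log2 fold change was 0.18 for the factors against 0.0098 for all genes. Only Eif5b passed a 2-fold difference. Of the scaffold eIF3, 10 of 14 subunit genes rose, and 4 fell. Of the 11 genes grouped as the cap-binding eIF4F and helpers, Eif4a3 among them, 4 rose and 6 fell. In bulk libraries a lower share of one kind of cell and less RNA per cell cannot be told apart.

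**Figure D1:**
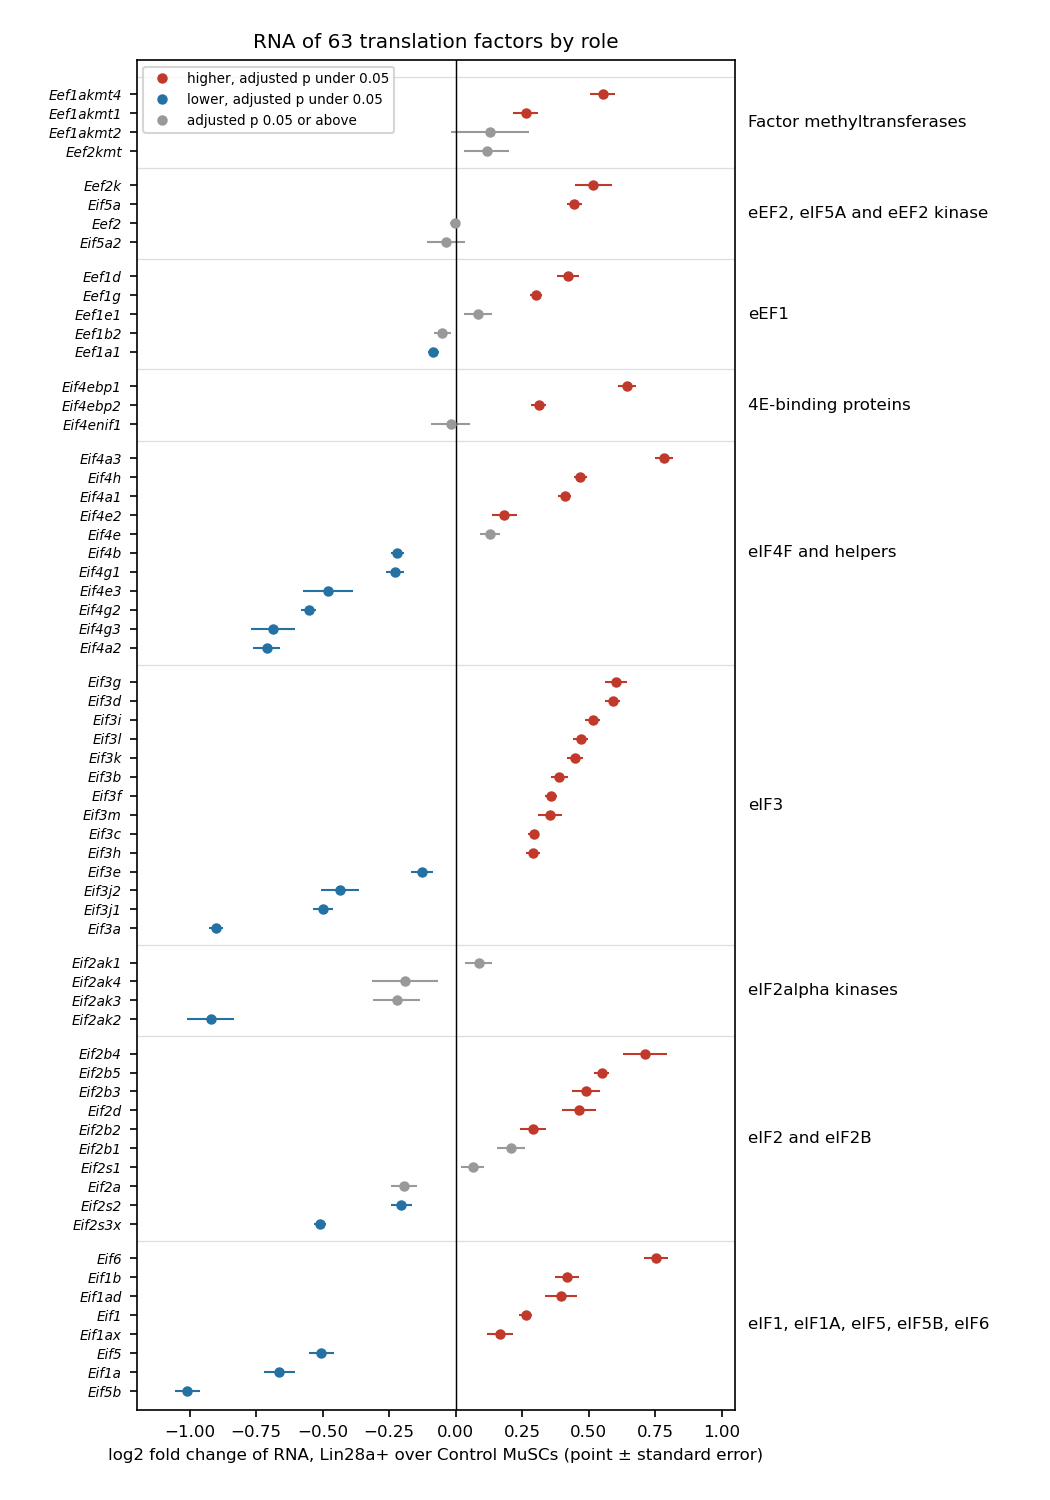
Each point is the log2 fold change of the RNA of 1 translation factor, Lin28a+ over control MuSCs, with its standard error as a bar, grouped by role (2 input libraries per population). Most eIF3 subunits lie right of 0, with Eif3a at -0.90 far to the left, and the group of eIF4F and helpers spreads from -0.71 to 0.78 (Eif4a3).

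Among the factors that rose, Eif4a3 changed most. This helicase of the exon junction complex was at 77.5 and 75.3 CPM in control and at 133 and 130 CPM in Lin28a+ libraries, scaled by TMM factors. Its log2 fold change was 0.78 ± 0.034 (SE, n = 2 per group, adjusted p = 2.99e-05). Eif6, which keeps the large ribosomal subunit from joining too early, stood at 47.6 and 46.3 against 81.0 and 77.1 CPM (0.75 ± 0.045, adjusted p = 8.04e-05). Eif2b4, a subunit of the exchange factor that recharges eIF2 with GTP, was at 10.5 and 9.98 against 17.5 and 15.9 CPM (0.71 ± 0.083, adjusted p = 0.00082). In all 3 genes both Lin28a+ libraries lay above both control libraries. Eif4ebp1, the repressor that holds eIF4E when mTOR is inactive, rose from 225 and 217 to 338 and 352 CPM (0.64 ± 0.034, adjusted p = 5.29e-05). Eif3g, of the mobile arm of eIF3, rose from 89.2 and 95.6 to 140 and 141 CPM (0.60 ± 0.041, adjusted p = 0.00012). Eif3d, the eIF3 subunit with its own cap-binding surface, rose from 101 and 102 to 154 and 152 CPM (0.59 ± 0.029, adjusted p = 4.39e-05). Increases of this group thus ran from 1.51-fold to 1.72-fold.

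Among the factors that fell, Eif5b, the GTPase that joins the ribosomal subunits (chr1:37998010-38055579, GRCm38.p6), dropped from 71.4 and 68.9 CPM in control to 34.2 and 35.4 CPM in Lin28a+ libraries. It was 2.01-fold lower (log2 fold change -1.01 ± 0.047, adjusted p = 3.74e-05). Eif2ak2, the kinase PKR that answers double-stranded RNA, fell from 11.4 and 11.7 to 5.90 and 6.34 CPM (-0.92 ± 0.089, adjusted p = 0.0004). Eif3a, the largest scaffold subunit of eIF3 (chr19:60761116-60790693), fell from 263 and 265 to 141 and 143 CPM (-0.90 ± 0.026, adjusted p = 1.05e-05). The 2 libraries of a group differed by far less than the groups did in each of these 3 genes. Eif4a2, the second eIF4A helicase, fell from 37.1 and 38.0 to 22.8 and 23.1 CPM (-0.71 ± 0.052, adjusted p = 0.00015). Eif4g3, one of the eIF4G scaffolds, fell from 21.2 and 20.0 to 11.99 and 13.5 CPM (-0.69 ± 0.082, adjusted p = 0.0009). Eif1a, which with eIF1 holds the scanning ribosome open, fell from 40.8 and 41.0 to 26.9 and 24.7 CPM (-0.66 ± 0.058, adjusted p = 0.00028), although reads shared with its close copy Eif1ax make its level uncertain.

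**Figure D2:**
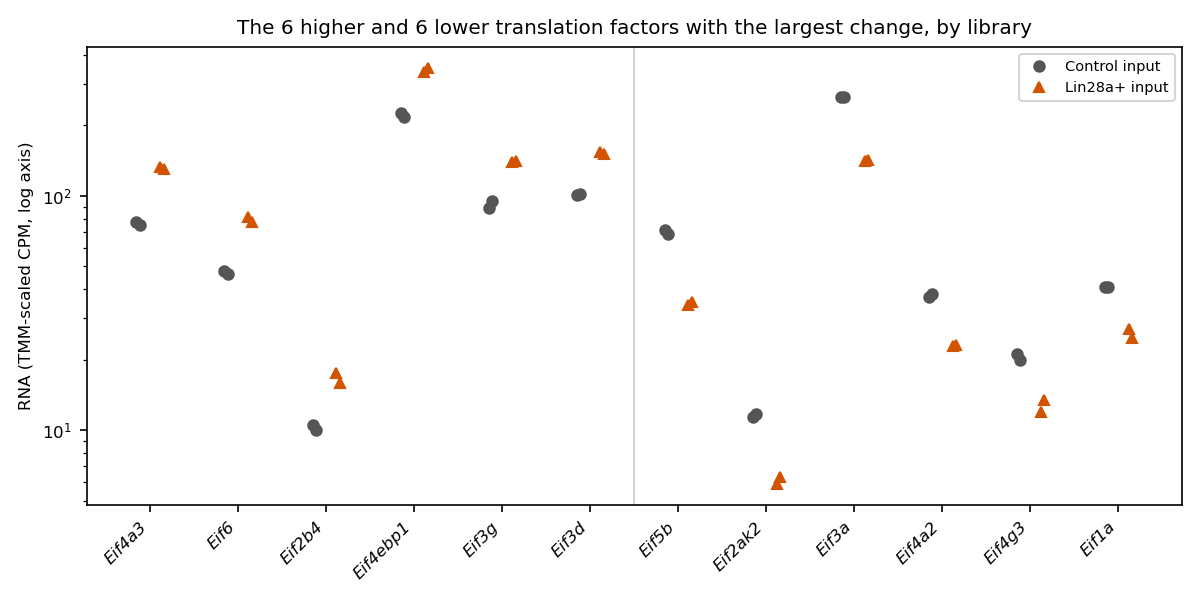
RNA level in TMM-scaled CPM (log axis) of the 6 higher and 6 lower factors with the largest change, 1 point for each of the 2 control (circles) and 2 Lin28a+ (triangles) input libraries. The 2 points of a group nearly coincide for each gene, and the groups do not overlap for any of the 12, as the choice of these genes required.

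The number of calls depended on the test. DESeq2, the tool the submitters name, called 30 of the 63 factors (20 higher and 10 lower) and 26.9% of all genes from the same counts. Of the factors with values above, it did not call Eif2b4 (adjusted p = 0.134), Eif2ak2 (0.103) and Eif4g3 (0.0921), whose log2 fold changes it placed at 0.70, -0.93 and -0.70. Of the factors named in the next paragraphs, it did not call Eif3e, Eif2b2, Eif2b3, Eif2d, Eif2s2, Eif1b, Eif1ad, Eif1ax, Eif5, Eif4e2, Eif4g1, Eef1a1, Eef1d, Eef2k, Eef1akmt1 and Eef1akmt4 (adjusted p from 0.0589 to 0.45).

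Within eIF3, all 14 subunit genes passed the test in RNA, 10 upwards and 4 downwards, where 56.8% of all genes passed. Eif3g and Eif3d were followed by Eif3i (0.51), Eif3l (0.47), Eif3k (0.45), Eif3b (0.39), Eif3f (0.36), Eif3m (0.36), Eif3c (0.29) and Eif3h (0.29). The 4 that fell were Eif3a, the paralog pair Eif3j1 and Eif3j2, and Eif3e. Eif3j1, which encodes the loosely bound subunit at the mRNA entry channel, was at 95.5 and 95.3 against 68.8 and 66.2 CPM (-0.50 ± 0.037, adjusted p = 0.00016), and Eif3j2 at 149 and 131 against 100.2 and 106 CPM (-0.43 ± 0.072, adjusted p = 0.0035), though reads of these near-identical copies may not be told apart. Eif3e, at 194 and 182 against 175 and 169 CPM, passed only just (-0.13 ± 0.043, adjusted p = 0.049992). Its call was lost with total counts alone and with no filter on low counts. Eif3c, the partner of Eif3a in the core, was at 440 and 442 against 539 and 540 CPM. The 2 core partners therefore moved in opposite directions.

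The eIF4F group was split between paralogs, whose close sequences, as in Eif4a1 with Eif4a2, Eif1 with Eif1b and Eef1a1 with its copies, leave the division of reads between them uncertain. The helicase gene Eif4a1 rose from 312 and 307 to 415 and 408 CPM (0.41 ± 0.025, adjusted p = 8.04e-05), while its paralog Eif4a2 fell as given above. All 3 eIF4G scaffold genes fell. The canonical scaffold Eif4g1 stood at 96.1 and 96.9 against 82.2 and 82.6 CPM (-0.23 ± 0.032, adjusted p = 0.0018), Eif4g2, a scaffold without the eIF4E site, at 265.4 and 265 against 183 and 178 CPM (-0.55 ± 0.027, adjusted p = 4.22e-05), and Eif4g3 fell most. Of the cap-binding proteins, Eif4e itself was at 85.4 and 82.1 against 91.6 and 91.2 CPM (0.13 ± 0.037), which did not pass (adjusted p = 0.0881). Eif4e2, whose product represses translation from the cap, was higher by 0.18 ± 0.047 (adjusted p = 0.0202), and Eif4e3 lower by -0.48 ± 0.094 (adjusted p = 0.0067), with Lin28a+ libraries at 38.1 and 47.2 CPM and control libraries at 60.5 and 58.6 CPM. The call of Eif4e2 was lost without control replicate 2 or without Lin28a+ library A. The helicase cofactors went separate ways, Eif4h up by 0.47 ± 0.024 and Eif4b down by -0.22 ± 0.023. Eif4ebp2, the second 4E-binding protein, rose with Eif4ebp1, from 169 and 174 to 211 and 215 CPM (0.31 ± 0.028, adjusted p = 0.00033), Eif4enif1, which carries eIF4E into the nucleus, was at -0.02 ± 0.073, and Eif4ebp3 was not among the genes of the input table.

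For eIF2, the subunit genes of the factor itself fell or did not pass, and those of its exchange factor eIF2B rose or did not pass. The sets were not compared by a test. Eif2s3x, the gamma subunit, fell from 530 and 537 to 372 and 378 CPM (-0.51 ± 0.024, adjusted p = 3.75e-05), and Eif2s2, the beta subunit, by -0.20 ± 0.039 (adjusted p = 0.0064). Eif2s1, the alpha subunit that the stress kinases phosphorylate, stood at 149 and 157 against 156 and 165 CPM, so that the groups overlapped. Of the eIF2B genes, Eif2b2 (0.29), Eif2b3 (0.49), Eif2b4 and Eif2b5 (0.55 ± 0.027, adjusted p = 4.44e-05) rose, and Eif2b1 was at 0.21 ± 0.053 (adjusted p = 0.102). Eif2d, an alternative carrier of tRNA to the ribosome, rose by 0.46. Of the 4 kinases of eIF2alpha only Eif2ak2 passed the test, as the other kinases, Eif2ak1 (HRI), Eif2ak3 (PERK) and Eif2ak4 (GCN2), lay at 0.09, -0.22 and -0.19 with standard errors of 0.051, 0.087 and 0.124. The Y-linked gamma subunit Eif2s3y held at most 0.333 estimated counts in any library and was not tested.

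Around start-site selection and subunit joining, all 8 genes passed the test, 5 upwards and 3 downwards, where 56.8% of all genes passed. The call of Eif1ax was lost in DESeq2 and with at least 10 counts required in every library. Eif1, which rejects wrong start codons, rose by 0.26 ± 0.026 and its paralog Eif1b by 0.42 ± 0.044. Eif1ad rose by 0.39 and Eif1ax by 0.17, while Eif5, the GTPase activator of eIF2, fell from 43.1 and 43.9 to 31.1 and 30.3 CPM (-0.51 ± 0.048, adjusted p = 0.00038), in the same direction as Eif5b and Eif1a.

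Of the 9 genes of eEF1, eEF2 and eIF5A tested, 4 rose and 1 fell. Eef2, which translocates the ribosome, stood at 6810 and 6929 CPM in control and at 6848 and 6864 CPM in Lin28a+ libraries, and its groups overlapped (-0.0028 ± 0.020, adjusted p = 0.919). Eef1a1, the main carrier of aminoacyl-tRNA, was at 4963 and 4857 against 4614 and 4649 CPM (-0.08 ± 0.021, adjusted p = 0.0186), and this call was lost in 6 of the 9 alternatives tried. Its muscle and nerve paralog Eef1a2 held 5 to 11 estimated counts per library and was not tested. Of the exchange factor eEF1B, Eef1d rose by 0.42 ± 0.041 and Eef1g by 0.30 ± 0.021, and Eef1b2 was at -0.05 ± 0.031. Eef2k, the kinase that switches eEF2 off, rose from 14.0 and 15.1 to 21.4 and 20.4 CPM (0.52 ± 0.070, adjusted p = 0.0015). Eif5a rose from 265 and 275 to 367 and 369 CPM (0.45 ± 0.028, adjusted p = 9.31e-05), whereas its paralog Eif5a2 was at 39.9 and 45.1 against 41.3 and 41.9 CPM (-0.04 ± 0.070). Of the methyltransferases that modify eEF1A and eEF2, Eef1akmt4 (0.55) and Eef1akmt1 (0.26) rose and Eef1akmt2 and Eef2kmt did not pass.

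Genes that work beside the factors were counted list by list, and most lists held calls in both directions. Of 22 genes of the cytosolic aminoacyl-tRNA synthetases, which charge tRNAs, and of their scaffold proteins Aimp1 and Aimp2, 12 were higher, both scaffold genes among them, and 1 was lower, led by Vars (0.92 ± 0.044) and with Eprs (-0.45 ± 0.036) as the one that fell. Of 9 genes for the hypusine of eIF5A and the diphthamide of eEF2, 3 were higher and none lower: Dhps (0.84) and Dohh (0.66), the 2 enzymes that make hypusine, and Dph2 (0.54). Of 21 genes of the integrated stress response, the programme downstream of eIF2alpha phosphorylation, 10 were higher and 4 lower. In that list Trib3 (1.49 ± 0.084), Psat1 (1.12 ± 0.033) and Asns (1.01 ± 0.041) rose, the last 2 being enzymes of serine and asparagine synthesis, and Impact, an inhibitor of GCN2, fell by 1.53 on the log2 scale. Slc7a11 (-0.99), Nck1 (-0.61) and Sesn2 (-0.12) fell as well, and Ddit3 (0.18) and Ppp1r15a (0.03) did not pass. Of 26 regulators of eIF4F, 3 were higher and 13 lower, among them the mTOR inhibitor Deptor (-2.89 ± 0.052), the eIF4A inhibitor Pdcd4 (-1.35 ± 0.12) and the poly(A)-binding protein Pabpc1 (-0.49 ± 0.032). Of 11 termination and recycling genes 3 were higher and 5 lower, of 16 stress granule genes 4 and 6, and of 10 mitochondrial translation factors 1 and 1. The shares of all genes called higher and lower, 28.1% and 28.7%, stand beside each of these counts.

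m6A-RIP rows of the table were given for 43 of the 67 factors, 109 rows in all, and 68.3% of the 63 expressed factors had a row against 66.5% of all expressed genes. With the rows of a gene summed, the m6A-RIP followed the RNA. A total of 35 of 43 factors (81.4%) passed, 22 higher and 13 lower, where 66.3% of all 9409 genes passed (32.5% higher and 33.8% lower). With library totals as the only scaling, the median of all genes went from 0.0071 to -0.095 and the split of all calls from 3057 higher and 3178 lower to 2389 and 3765, and the factors then stood at 20 higher and 14 lower. Eif3a fell from 882 and 862 to 421 and 408 CPM (-1.07 ± 0.038, adjusted p = 1.97e-10) and Eif5b from 283 and 287 to 135 and 140 CPM (-1.05 ± 0.041, adjusted p = 4.60e-10), the only 2 factors past 2-fold. Eif1a (-0.73), Eif5 (-0.59), Eif4g2 (-0.55) and Eif4g3 (-0.51) fell as well. Eif6 rose from 58.3 and 56.8 to 104 and 100.5 CPM (0.83 ± 0.051, adjusted p = 2.59e-08), and Eif4ebp1 from 410 and 431 to 680 and 674 CPM (0.69 ± 0.040, adjusted p = 1.40e-08). Eif4ebp2 (0.69), Eef2k (0.60), Eef1akmt1 (0.54) and Eif4h (0.54) rose, and Eif4e, Eif3f, Eif3j1 and Eif3j2 were among the 8 factors that did not pass.

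**Figure D3:**
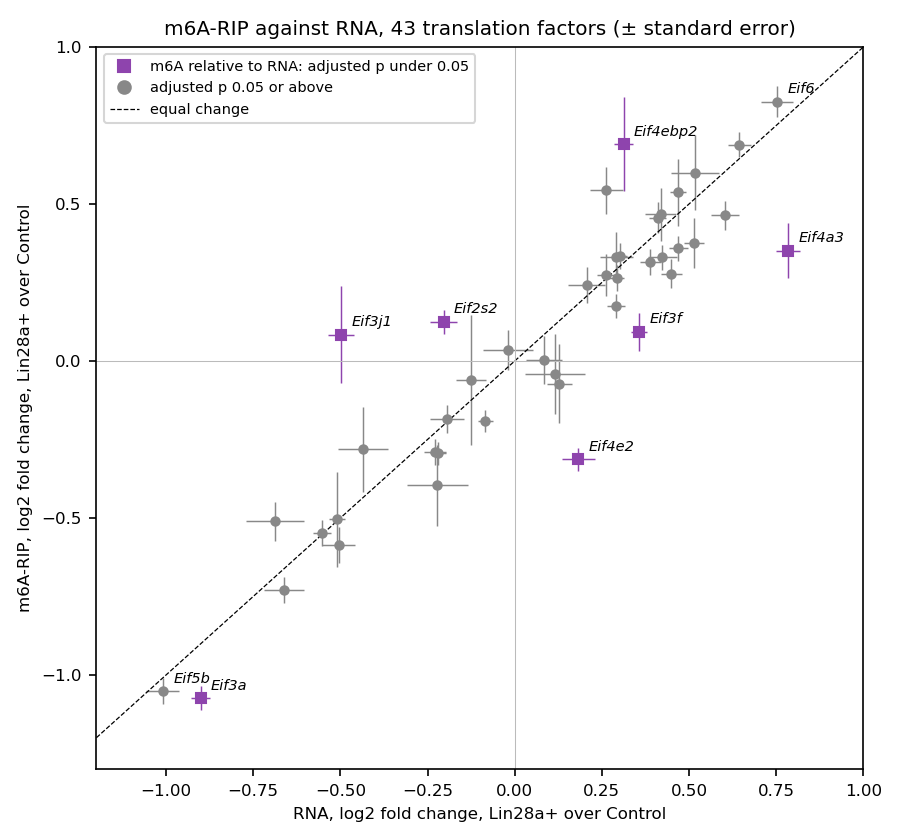
Log2 fold change of the m6A-RIP (vertical) against that of the RNA (horizontal) for 43 factors, Lin28a+ over control MuSCs, with standard errors as bars; squares mark the 7 factors whose m6A-RIP differed beyond their RNA. Most points lie near the dashed line of equal change, and Eif3j1 lies above it and Eif4e2 below it.

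Relative to RNA, fewer factors differed. The interaction of population and assay asks whether the m6A-RIP changed by more or less than the RNA, and 7 of 43 factors passed (16.3%) against 7.17% of the 8060 genes tested, 3 higher (3.04% of all genes) and 4 lower (4.13%). Eif4e2 showed the clearest difference, as its RNA was 0.18 higher and its m6A-RIP fell from 558 and 559 to 453 and 446 CPM, an interaction of -0.51 ± 0.060 (adjusted p = 0.00044). For Eif2s2 the RNA fell by 0.20 and the m6A-RIP rose from 459 and 469 to 501 and 511 CPM (interaction 0.31 ± 0.053, adjusted p = 0.0041). The calls in the 2 assays thus had opposite signs in both genes, although DESeq2 called neither RNA. Eif4a3 rose less in m6A-RIP, 21.4 and 21.1 against 27.4 and 26.9 CPM, than in RNA (interaction -0.45 ± 0.071, adjusted p = 0.0029). Eif3f was at 59.9 and 62.8 against 63.5 and 67.1 CPM in m6A-RIP (interaction -0.28 ± 0.053, adjusted p = 0.0086). Eif4ebp2, with 160 to 361 counts per m6A-RIP library, rose more than its RNA (0.35 ± 0.086, adjusted p = 0.0351), and Eif3a fell more (-0.19 ± 0.048, adjusted p = 0.0439). Of the 13 alternatives, 10 lost the call of Eif3a and 7 that of Eif4ebp2, and Eif3f and Eif4a3 lost theirs in DESeq2 (adjusted p = 0.103 and 0.0624), which called 3 factors, Eif2s2, Eif3j1 and Eif4e2, and 4.4% of all genes (2% higher and 2.41% lower). Without control input replicate 2, 4 factors passed, as did 4.27% of all genes, with the spread of the lone library taken from the other groups.

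The call of Eif3j1 rests on a single m6A-RIP row (0.57 ± 0.094 relative to RNA, adjusted p = 0.0039), with 268 and 179 counts in control and 201 and 254 in Lin28a+ libraries. The m6A-RIP table gives no positions. Where the transcript named in a row also had peaks in the Igf2bp3-RIP or Lin28a-RIP tables, which do give positions, the peaks could be looked up. This held for 57 of the 109 rows, and for 10 of these rows, of 4 transcripts filed under Eif3j1, Eif3j2, Eif4g3 and Eif2a, no peak of the transcript lay inside the named factor. All peaks with the transcript of the Eif3j1 row lay in its neighbour Ctdspl2, so which gene the row measures is uncertain. The transcripts of the Eif4e2 and Eif2s2 rows had no such peaks, so these rows could not be checked in this way.

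Single rows of one gene did not always move together. Of the 109 rows, 81 passed (74.3%, against 61.8% of all 18881 rows). Of these, 39 were higher and 42 lower (35.8% and 38.5% of the rows, against 30% and 31.8% of all rows). At least 2 rows were given for 24 factors. All 6 rows of Eif3a fell, from -1.21 to -0.91, all 5 of Eif5b, all 6 of Eif4b, and all 3 of Eif4ebp1 rose (0.60 to 0.78). Rows called in both directions were seen in 2 of these 24 factors, Eif4e2 and Eif2s2, the same 2 whose RNA and m6A-RIP were called in opposite directions. How often this occurs among all genes was not counted. For Eif4e2, 1 of its 6 rows fell from 260 and 258 to 140 and 138 CPM (-0.90 ± 0.048, adjusted p = 1.48e-09), and another rose from 23.7 and 18.0 to 36.2 and 37.0 CPM (0.80 ± 0.11, adjusted p = 1.94e-05). The falling row is the strongest of the gene and sets the direction of its sum. For Eif2s2, 3 rows rose (0.42, 0.38 and 0.38) and 2 fell (-0.37 and -0.26), with 1 row at -0.05. In Eif4e, 1 of 3 rows held 713 and 616 counts in control, 679 counts in Lin28a+ library A and only 2 counts in library B, while another of its rows was called higher (0.27 ± 0.058, adjusted p = 0.0012). This was the only row of a factor with a gap of over 10-fold between 2 libraries of a group, and the summed change of Eif4e turned from -0.07 to 0.19 without library B.

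**Figure D4:**
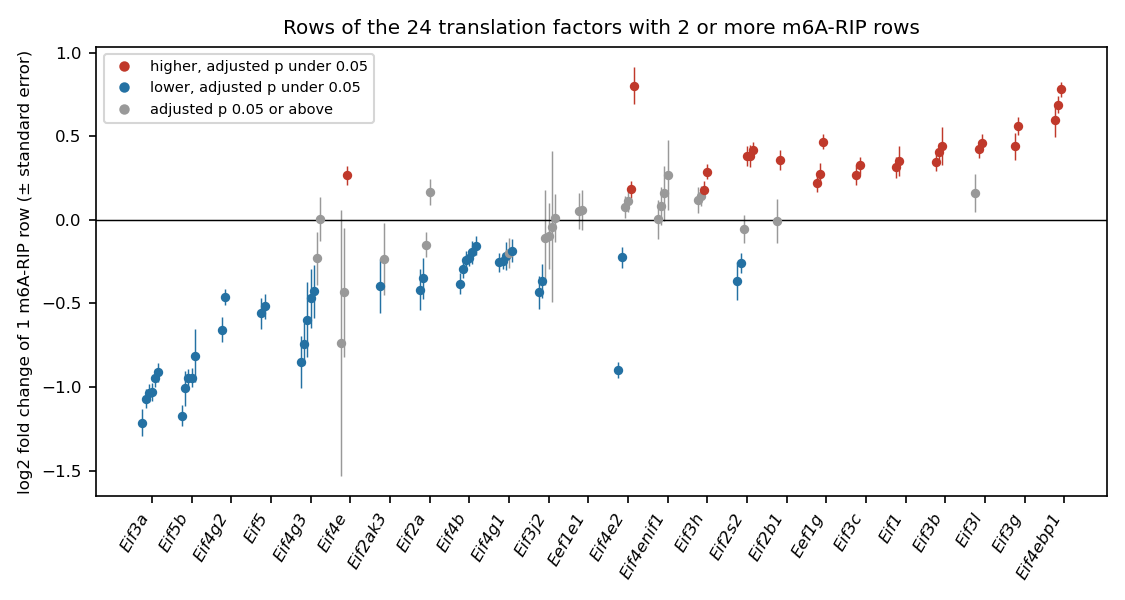
Each point is the log2 fold change of 1 m6A-RIP row with its standard error, for the 24 factors with 2 or more rows, ordered by their median row. Rows of Eif3a and Eif5b all lie near -1, and those of Eif4e2 reach from -0.90 to 0.80.

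Igf2bp3 is an RNA-binding protein that reads m6A and stabilises mRNAs, and Lin28a is best known for binding let-7 precursors and also binds many mRNAs. Their peaks carry positions, and these do not always match the gene under which a peak is filed. Of all peaks, 18.3% of the 19465 Igf2bp3-RIP peaks and 13.4% of the 21616 Lin28a-RIP peaks lay inside exactly 1 protein-coding gene of RefSeq, and that gene was another than the deposited one. Among the factors, all 6 Igf2bp3-RIP and all 6 Lin28a-RIP peaks filed under Eif3j1 lay in Ctdspl2, those under Eif3j2 in Eif3j1 or Spg11, and 2 Igf2bp3-RIP peaks of Eif2a in Serp1. Conversely, 5 Lin28a-RIP peaks inside Eif3a were filed under Mir3084-2 and 2 under Nanos1, 7 inside Eif4g3 under 1700095J12Rik and 4 under Mir6399, and all 5 Igf2bp3-RIP peaks inside Eif5a2 under Rpl22l1. The counts, ratios and overlaps that follow are by position, a choice made after the tables were seen, with the value by deposited gene beside the main ones.

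By position, 19 of the 63 expressed factors held a Lin28a-RIP peak (30.2%, against 24% of all expressed genes) and 23 an Igf2bp3-RIP peak (36.5%, against 32.3%). By deposited gene the counts were 20 and 20 (31.7% each, against 25.6% and 33.2%). Both kinds of peak lay in 14 factors. No peak of either kind lay in the eEF1 genes, in the 5 eIF2B genes, in Eif4ebp1 or in Eif4e2.

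Most of the Lin28a-RIP counts of the factors lay over scaffolds of eIF4F and eIF3 and over Eef2, as sums that grow with the RNA level and the number of peaks. In the 2 libraries, 14 peaks inside Eif4g1 (chr16:20672720-20692883) held 201494 and 182897 counts, 19 peaks inside Eif3a 121761 and 114362 counts, and 5 peaks inside Eef2 (chr10:81176631-81182509) 137475 and 121584 counts. Further, 11 peaks of Eif3c held 50796 and 46858 counts, 8 of Eif4b 44315 and 41398, 11 of Eif3b 26190 and 23574, 18 of Eif5b 25934 and 24584, and 26 of Eif4g3, the factor with most peaks, 21724 and 20072. The strongest Lin28a-RIP peak of Eif3a, chr19:60766371-60767190 (mm10), held 20252 and 18287 counts and lay over an Igf2bp3-RIP peak at chr19:60766376-60767189. Against its own input in Lin28a+ MuSCs, Eif4g1 stood highest at a log2 ratio of 6.08, followed by Eif4g3 (5.58), Eif3a (4.60) and Eif5b (4.40), and these 4 of 19 factors were the ones above the median of all genes with a peak (1.73). The median over the 19 factors was 1.02, and Eif3b was at 0.49. By deposited gene the same 4 led, with Eif4g1 at 5.68, Eif4g3 at 4.90, Eif5b at 4.21 and Eif3a at 4.04, and the median was 0.53 over 20 factors against 1.65 over all genes. Eef2, with its high input, was at -0.87 (-1.19 by deposited gene) and had no Igf2bp3-RIP peak. No control Lin28a-RIP is among the samples, so the ratios describe Lin28a+ cells alone, and the background of the precipitation was not measured.

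Igf2bp3-RIP showed a related order by position. The log2 ratio over input in Lin28a+ MuSCs was 5.74 for Eif4g3, 4.71 for Eif4g1, 4.22 for Eif4g2, 4.19 for Eif3a and 3.46 for Eif5b, followed by Eif1a (3.40), Eif5 (3.13) and Eif4enif1, and these 8 of 23 factors exceeded the median of all genes with a peak (1.80). The median over the 23 factors was 0.87. By deposited gene Eif4g3 (4.73), Eif4g1 (4.37), Eif4g2 (4.04) and Eif3a (3.57) led, and the median was 1.03 over 20 factors against 1.64 over all genes. Of 115 Igf2bp3-RIP peaks inside the factors, 83 (72.17%) overlapped a Lin28a-RIP peak by at least 1 base, against 60.42% of all Igf2bp3-RIP peaks. In the other direction 79 of 136 Lin28a-RIP peaks (58.09%) did so with an Igf2bp3-RIP peak, against 52.4% of all. By deposited gene these shares were 75.26% and 59.48%. The overlap was complete in Eif3a (14 of 14 Igf2bp3-RIP peaks), Eif4g1 (13 of 13), Eif4b (8 of 8) and Eif5b (6 of 6). In Eif4g2, which held 9 Igf2bp3-RIP and 2 Lin28a-RIP peaks, it was 2 of 9.

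**Figure D5:**
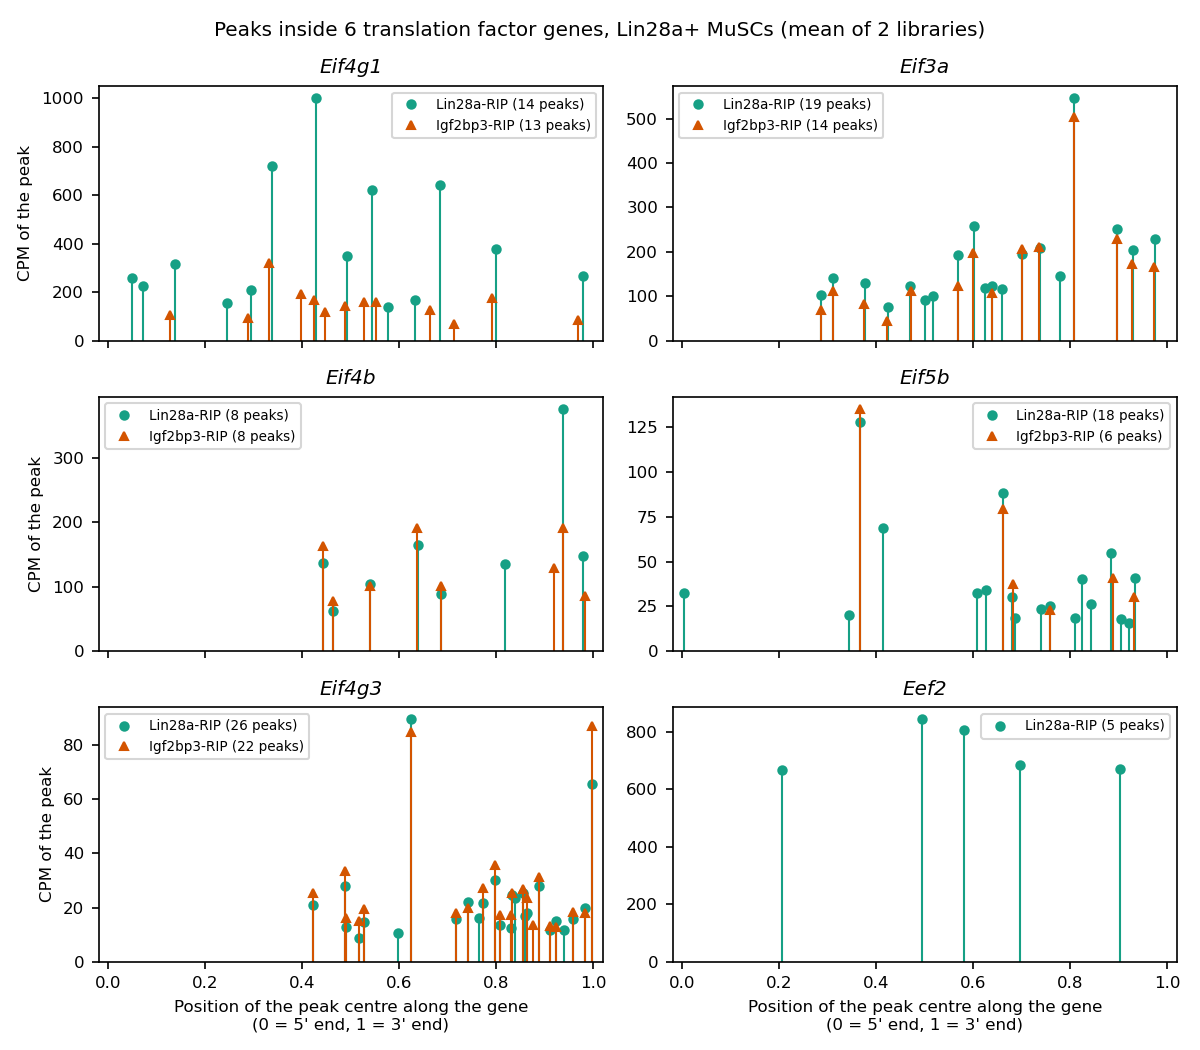
Peaks inside 6 factor genes in Lin28a+ MuSCs, by the position of the peak centre from the 5′ end (0) to the 3′ end (1) of the gene and the mean CPM of 2 libraries. Lin28a-RIP (circles) and Igf2bp3-RIP (triangles) peaks lie at the same positions over much of Eif3a and Eif4g1, and Eef2 has 5 Lin28a-RIP peaks and none of Igf2bp3.

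Between the populations, no change of Igf2bp3 binding at the factors passed edgeR's test, fitted without a replicate block. This depended on the block. With it, 4 factors by deposited gene and 33% of all genes passed relative to RNA, and by position 6 factors and 31.6% of all genes. The values that follow are without it. None of the 97 deposited peaks was called by edgeR's quasi-likelihood test (0 at an unadjusted p under 0.05), where 0.123% of all 19465 peaks were (0.0616% higher and 0.0616% lower), and none of the 115 peaks by position (1 at an unadjusted p under 0.05). DESeq2 called 0 of the 97 deposited peaks and 263 of all 19465 peaks (111 higher and 152 lower). Relative to RNA, 0 of 20 factors passed by deposited gene (3 at an unadjusted p under 0.05; 1.08% of all 3971 genes passed), and DESeq2 called 1, Eif3b (adjusted p = 0.0361), and 2.32% of all genes (0.856% higher and 1.46% lower). By position 0 of 23 passed (3 unadjusted), as did 0% of all 3693 genes. Eif3b, with 1 peak of 386 and 1100 counts in control and 470 and 1039 in Lin28a+ libraries, stood at -0.93 ± 0.18 by deposited gene (adjusted p = 0.0612) and at -0.98 ± 0.17 by position (adjusted p = 0.0688). Eif2ak2, found only by position, stood at 0.73 ± 0.21 (adjusted p = 0.123). By deposited gene, 4 factors and 14.4% of all genes passed without Lin28a+ Igf2bp3-RIP replicate 1, and 1 factor and 5.14% of all genes without replicate 2. These refits leave 1 Lin28a+ library, which is assumed to vary like the other groups.

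The spread between the Igf2bp3-RIP libraries limits this comparison. Over the 14 peaks inside Eif3a the CPM were 4009 and 1720 in control and 3091 and 2082 in Lin28a+ replicates 1 and 2, and over the 13 peaks inside Eif4g1 2065 and 3109 against 1596 and 2728. In both genes replicates 1 and 2 of a population differed by more than the 2 populations did, and in the same direction in both populations. Over all peaks, replicate 2 minus replicate 1 correlated at r = 0.703 between the populations, so part of this spread is shared by replicate number. Eif4g2, at 3325 and 3226 against 3462 and 3281 CPM, was steadier. Without a replicate block, the common coefficient of variation was 27.9% over Igf2bp3-RIP peaks against 2.48% over input genes. Replicate 1 held 9215355 and 12617254 counts where replicate 2 held 27592959 and 34142094.

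The direction of the RNA was counted for factors with and without a peak, and the difference was not tested. By position, of the 23 factors with an Igf2bp3-RIP peak 3 (13%) were higher and 12 (52.2%) lower in RNA, and of the 40 without one 29 (72.5%) were higher and 5 (12.5%) lower. For Lin28a-RIP, 5 of 19 factors with a peak (26.3%) were higher and 9 (47.4%) lower, against 27 (61.4%) and 8 (18.2%) of 44 without. Of all genes, 13.9% were higher and 49.8% lower among those with an Igf2bp3-RIP peak and 34.9% and 18.6% among those without, and the shares for Lin28a-RIP were 18.8% and 46.2% with a peak and 31.1% and 23.2% without. Bound factors also had longer genes, with a median span of 25.1 kb against 10.8 kb for Igf2bp3-RIP and 23.4 kb against 12.6 kb for Lin28a-RIP. The same held over all genes tested, at 47.3 kb against 15.6 kb and 49.8 kb against 17.1 kb. Over the 63 factors the log10 span and the RNA change correlated at r = -0.308 (rho = -0.324), and over all genes at -0.257 (-0.338), as a description across genes, which share the same 4 libraries. The part of gene length in these counts was not tested.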

How the data were processed

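The authors deposited tables of estimated counts per gene for the input and of raw counts per peak for m6A-RIP, Igf2bp3-RIP and Lin28a-RIP, none of them scaled between libraries. The submitters' processing notes name FastQC, HISAT2 2.0.4, MACS2 1.4.3 and DESeq2 1.42.0 and the builds GRCh38 and mm10; identifiers and peak positions in the files are those of mouse, and 85.6% of Lin28a-RIP and 79.8% of Igf2bp3-RIP peaks lay inside their named gene in GRCm38.p6. The tool that made the estimated counts is not given in the sources used here. Symbols were matched to RefSeq for 99.96% to 99.98% of rows, and promoter sequences are from RefSeq (GRCm38.p6).

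Estimated counts were rounded. Tests were edgeR 4.0.16 quasi-likelihood fits (R 4.3.3, limma 3.58.1) with TMM scaling, filterByExpr and Benjamini-Hochberg adjustment over all genes or peaks of a table, with a threshold of 0.05. The peaks of a gene were summed. Changes relative to RNA are the interaction of population and assay, with scaling factors computed within each assay. CPM in the text are TMM-scaled within a comparison. The script was tested on simulated counts. Alternatives were DESeq2 1.42.0, its size factors, total counts alone, no filter on low counts, at least 10 counts in every library, single libraries left out, a replicate block for Igf2bp3-RIP, rows or peaks with at least 100 counts and, chosen after seeing the data, peaks assigned by position to the only protein-coding RefSeq gene they overlap. The members and gene lists were chosen with earlier results of these data known. Named are up to 6 higher and 6 lower factors per comparison with the largest change among those past the threshold whose groups did not overlap, paralog sets, the kinases with Eef2, factors called relative to RNA and those with most Lin28a-RIP counts; other factors complete a role and were picked with their values known. For lists, up to 3 examples were taken by size of change, and others, among them Eprs, Acta2 and Pabpc1, were also picked with values known. The precision of a value is limited by depth, from 4842915 estimated counts in an input library to 36610494 counts in a Lin28a-RIP library, and by 2 libraries per group.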

Additional observations from a re-analysis of the deposited data

How the results depend on the processing

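DESeq2 called 30 factors in RNA (20 higher and 10 lower) in place of 49, and 3 in m6A-RIP relative to RNA (2 higher and 1 lower) in place of 7, and in Igf2bp3-RIP relative to RNA 1 (0 higher and 1 lower) in place of 0; the cause was not tested. Leaving out single libraries gave a median log2 fold change of 0.14 to 0.23 over the factors in RNA. Each of these fits leaves 1 library in a group, whose spread is taken from the other groups, and the share of all genes that passed moved as well. With library totals as the only scaling, the median of all genes for Igf2bp3-RIP relative to RNA went to 0.17 and its 45 calls were 32 higher and 13 lower, against 14 higher and 29 lower, and none of these was a factor. The summed m6A-RIP of Eif4e turned from -0.07 to 0.19 without Lin28a+ library B and was -0.37 without library A. Over all 63 factors tested in RNA, 36 of 567 repeats lost a call, 19 of them in DESeq2, and 1 gained one. Of 387 repeats for 43 factors in m6A-RIP 6 lost and 5 gained a call, and of 559 in m6A-RIP relative to RNA 20 and 2 did. The counts of factors with a peak stayed within 1.5 times under each alternative run for them.

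With the replicate block, 2 Igf2bp3-RIP peaks filed under factors were called, 2 higher and 0 lower (under Eif3j1 and Eif2a), as were 10.2% of all peaks. Relative to RNA the replicate block called 4 factors by deposited gene, 2 higher (Eif3j1 and Eif4g2) and 2 lower (Eif3b and Eif3c), as well as 33% of all genes. The peaks filed under Eif3j1 lay in Ctdspl2. By position the block called 6 factors, 3 higher (Eif2ak2, Eif3j1 and Eif4g2) and 3 lower (Eif3b, Eif3c and Eif4g1), and 31.6% of all genes. The numbers are labels only: replicate 2 minus replicate 1 correlated at r = 0.703 over peaks between the 2 populations, with 2 pairs, and replicate 1 was the shallower in both. No paired analysis was possible for m6A-RIP because both Lin28a+ columns are named for replicate 1. The Lin28a+ columns of the input table are numbered 1 and 2, but as m6A-RIP libraries, so these numbers were not taken as those of input samples and no pairing of input was run. Lin28a-RIP had no control, so that no test was run on it. Depth limits the factors that were left out of the RNA test, Eef1a2 with 5 to 11 estimated counts, Eef1akmt3, Eif2s3y and Eif4e1b.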
